A study of Homo sapiens with 6 samples.

Results

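The 10 genes that encode inflammatory cytokines and chemokines, or the enzyme that starts inflammatory prostaglandin synthesis, are described here in SKOV3 ovarian cancer cells: IL6, CXCL8, CXCL1, CXCL2, CXCL3, CCL2, CCL20, IL1A, IL1B and PTGS2. They were chosen by name, and every probe that matched a sense transcript of these genes without mismatch was kept, which gave 18 probes for 10 genes of the 125601 probes and 43260 genes that the array covers. Expression had been measured on 6 single-colour Agilent arrays that carry probes for mRNAs and lncRNAs. Of these, 3 are labelled as cells given 100 nmol/L 1α,25(OH)2D3, the hormonally active form of vitamin D, for 72 h, and 3 as cells given vehicle, the solvent ethanol, for the same time. SKOV3 is an established human ovarian cancer line, cultured in RPMI medium with fetal bovine serum. The label fields do not agree on the name of the line: the cell line field gives SKOV-3, while the sample titles and the growth protocol carry other numbers after SKOV, and the study's SKOV3 is used here. Nothing in the labels says whether the 3 arrays of a group came from separate cultures, so every p-value measures the spread between these arrays, which may be technical.

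These genes belong to a circuit that many epithelial tumours keep active. IL-1α and IL-1β signal through the IL-1 receptor and, like TNF, activate the transcription factor NF-kB, which drives transcription of IL6, of the neutrophil-attracting CXC chemokines (CXCL8, CXCL1, CXCL2 and CXCL3), of the monocyte attractant CCL2, of CCL20, which attracts cells that bear the receptor CCR6, and of PTGS2, also called COX-2. Their mRNAs are short-lived and are degraded by proteins such as ZFP36 and ZC3H12A. In ovarian cancer IL-6 and CXCL8 are known as abundant products of tumour cells and ascites, and the active form of vitamin D is known to restrain NF-kB signalling in several cell types. The comparison between the labels asks whether the level of these transcripts differed between treated and control cells.

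The labels need a check first, and CYP24A1, the enzyme that degrades 1α,25(OH)2D3 and a textbook target of the vitamin D receptor, gives one. On the deposited log2 scale its probe A_23_P28815 read 2.23, 13.84 and 3.30 under the label 1α,25(OH)2D3 (replicates 1 to 3) and 14.18, 4.75 and 14.34 under the label vehicle. It was thus high on 3 arrays, those that carry the labels 1α,25(OH)2D3 replicate 2, vehicle replicate 1 and vehicle replicate 3, and low on the other 3, which goes against 4 of the 6 labels. A brighter coding probe of CYP24A1 read 8.24 on vehicle replicate 2, well above background, between its low values of 3.88 and 4.46 and its high values. An intron probe read 2.21 on that array, not well above background. By label the direction is opposite to that given by the study for this gene. The labels were kept, each array is named by its label throughout, and any direction below is one between labels. The array level of CYP24A1 is set beside the cytokine values as a description only, with no test, since arrays sorted by a measured signal are not groups of the study.

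Slide is unevenly spread as well. Slide 1 held 1α,25(OH)2D3 replicates 1 and 2, and slide 2 held 1α,25(OH)2D3 replicate 3 with all 3 vehicle arrays. Within slide 1 there is no vehicle array, so the within-slide value of every gene is 1α,25(OH)2D3 replicate 3 against the 3 vehicle arrays of slide 2. The share of probes flagged as well above background ran from 49.1% to 57.5% per array, no spot was saturated, and the number of arrays limits the precision. The cells carried epithelial markers: KRT7, KRT8, KRT19, EPCAM, PAX8, MUC16 and ERBB2 were well above background on all 6 arrays, and CDH1 on 1. Of 8 leukocyte markers chosen for this check, 7 had a probe. Read by the brightest probe of each, all 7 were well above background on all 6 arrays. PTPRC, which marks leukocytes, stood at 6.49 to 7.14 on its brightest probe. Only 2 of its 5 probes passed the detection filter given below, so its level depends on the probe. The summed scanner signal of the 7 leukocyte markers, linear and not normalized between arrays, ran from 1232 to 1628 under the label 1α,25(OH)2D3 and from 1637 to 2046 under vehicle. A linear sum follows its brightest members most, and the sum of the epithelial markers was also lowest on 1α,25(OH)2D3 replicates 1 and 2. CD68, a lysosomal protein, was lower under the treated label with a log2 difference of -1.12, though its labels overlapped. By brightest probe PTPRC (-0.33), ITGAM (-0.24), CSF1R (-0.22) and MS4A1 (-0.16) were lower too, and CD14 (0.20) and CD3E (0.095) were higher. The other PTPRC probe that passed the filter was higher, at 0.33. Endothelial and fibroblast markers summed to between 484 and 701, with COL3A1 above background on no array. The part of these signals in the cytokine values was not tested.

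Which stretch of a transcript a probe reads matters for this family. CXCL1, CXCL2 and CXCL3 lie in the same gene cluster on chromosome 4 and are near copies, and several of the probes lie in introns. In the CXCL1 and CXCL2 probes shown first, capitals mark the bases that differ from the closest stretch of a named paralog. In the CXCL8 and CXCL3 intron probes, capitals mark exon bases. All are 60 bases long, written 5′ to 3′, and matched once in hg38.
CXCL1, coding exon 3, chr4:73869929-73869988, plus strand, capitals differ from CXCL2: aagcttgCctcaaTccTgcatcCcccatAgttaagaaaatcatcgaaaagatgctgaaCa
CXCL2, coding exon 3, chr4:74098625-74098684, minus strand, capitals differ from CXCL3: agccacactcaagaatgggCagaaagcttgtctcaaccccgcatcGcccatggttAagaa
CXCL8, end of intron 2 and start of exon 3, chr4:73741922-73741981, plus strand: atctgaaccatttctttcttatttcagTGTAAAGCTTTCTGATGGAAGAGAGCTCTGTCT
CXCL8, intron 3, chr4:73742265-73742324, plus strand: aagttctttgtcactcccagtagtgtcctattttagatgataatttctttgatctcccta
CXCL3, intron 3, chr4:74037789-74037848, minus strand: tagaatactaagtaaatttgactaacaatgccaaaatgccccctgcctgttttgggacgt

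The exon 3 probe of CXCL2 has 3 mismatches to the CXCL3 transcript and 6 to that of CXCL1, and the exon 3 probe of CXCL1 has 6 mismatches to both others, so part of their signal may come from a paralog. The other probes of these genes, in the 3′ UTR, are more distinct: the CXCL1 probe has at least 22 mismatches to any other of the 6 related chemokine transcripts that were compared, and the CXCL2 probe at least 23. The CXCL8 probe that spans intron 2 and exon 3 ends intron 2 in the bases ttatttcag, the usual form of a splice acceptor, and the probe matches a transcript annotated as retaining that intron. The CXCL8 probe of intron 3 lies in an alternative protein-coding transcript, and only the remaining probe, in the 3′ UTR of exon 4, lies wholly in exons of the main transcript. The CXCL3 intron 3 probe likewise lies outside the exons of the main transcript.

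A probe counts as well above background where the scanner software flagged most of its spots so. By that flag 14 of the 18 probes, from 9 of the 10 genes, were detected on at least 1 array, 6 on all 6 arrays, and 4 on none. PTGS2 had no detected probe. The 11 probes from 7 genes that were detected on all 3 arrays of at least 1 label were tested with limma across all 63337 probes that passed the same filter. A probe was called where its fold change was above 2 with an unadjusted p under 0.05.

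**Figure D1:**
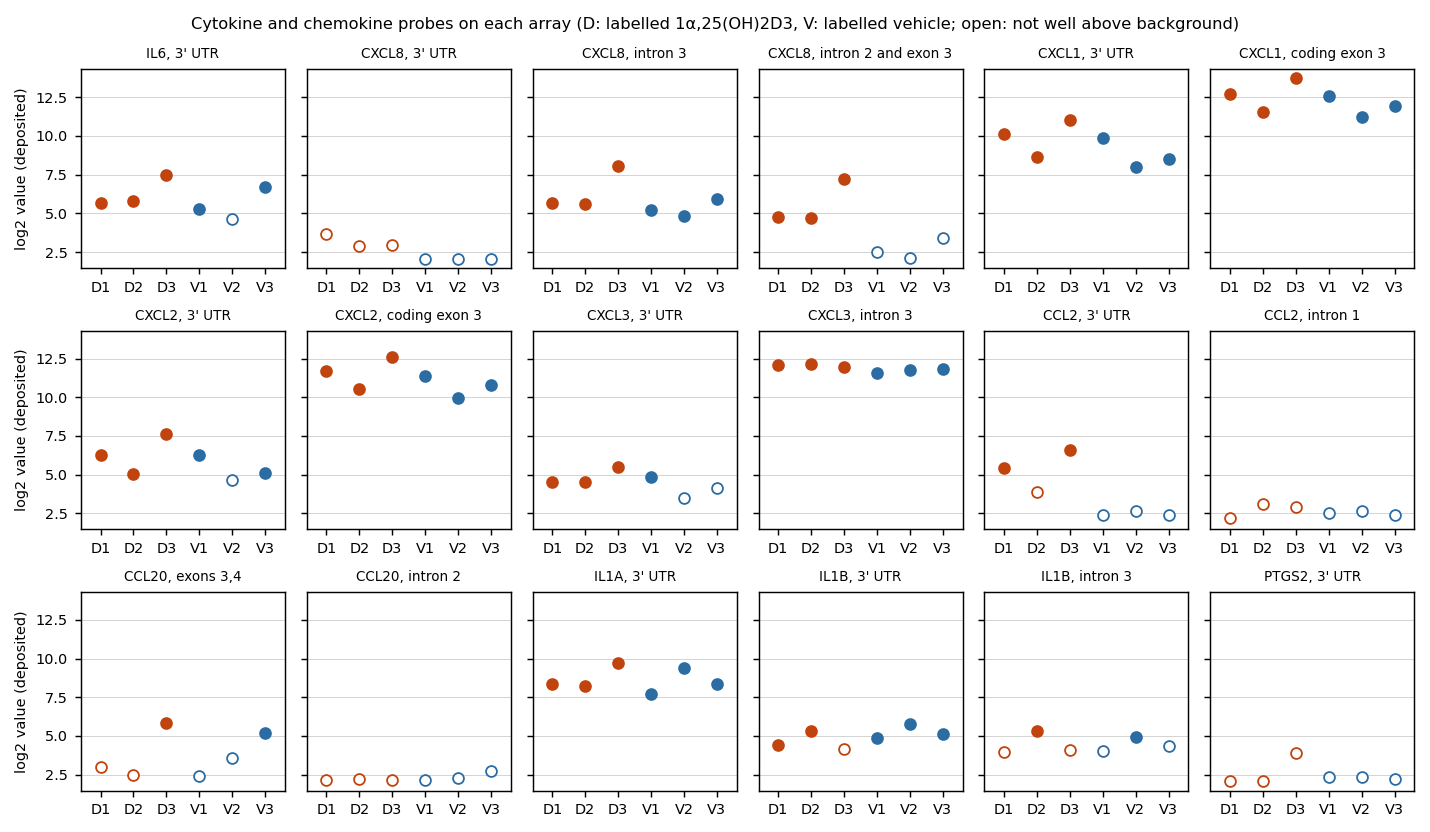
Deposited log2 value (vertical axis) of each of the 18 probes on each of the 6 arrays (horizontal axis; D1 to D3 labelled 1α,25(OH)2D3, orange, V1 to V3 labelled vehicle, blue), with open circles where the probe was not well above background. D3 holds the highest value in most panels, and the CXCL8 probe of intron 2 and exon 3 is filled on the 3 arrays D1 to D3 only.

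For most of these 11 probes the array labelled 1α,25(OH)2D3 replicate 3 stood highest and vehicle replicate 2 lowest. Replicate 3 of the treated label gave the highest of the 6 values for 9 of the 11, where it did so for 16.8% of all tested probes. Vehicle replicate 2 gave the lowest value for 8 of the 11, against 17.1% of all tested probes. Neither count can be read against those shares as a result about these genes. Of the 11, 4 passed the filter only through the treated label, and none of these was well above background on vehicle replicate 2. Several of the 11 also read the same transcript or near copies of it. On the CYP24A1 probe A_23_P28815 both 1α,25(OH)2D3 replicate 3 and vehicle replicate 2 were low, at 3.30 and 4.75. For the CXCL2 exon 3 probe, for example, the arrays fell from 1α,25(OH)2D3 replicate 3 over replicate 1, vehicle replicate 1, vehicle replicate 3 and 1α,25(OH)2D3 replicate 2 to vehicle replicate 2, so that arrays with a low CYP24A1 level stood at the top and at the bottom and those with a high level between them.

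**Figure D2:**
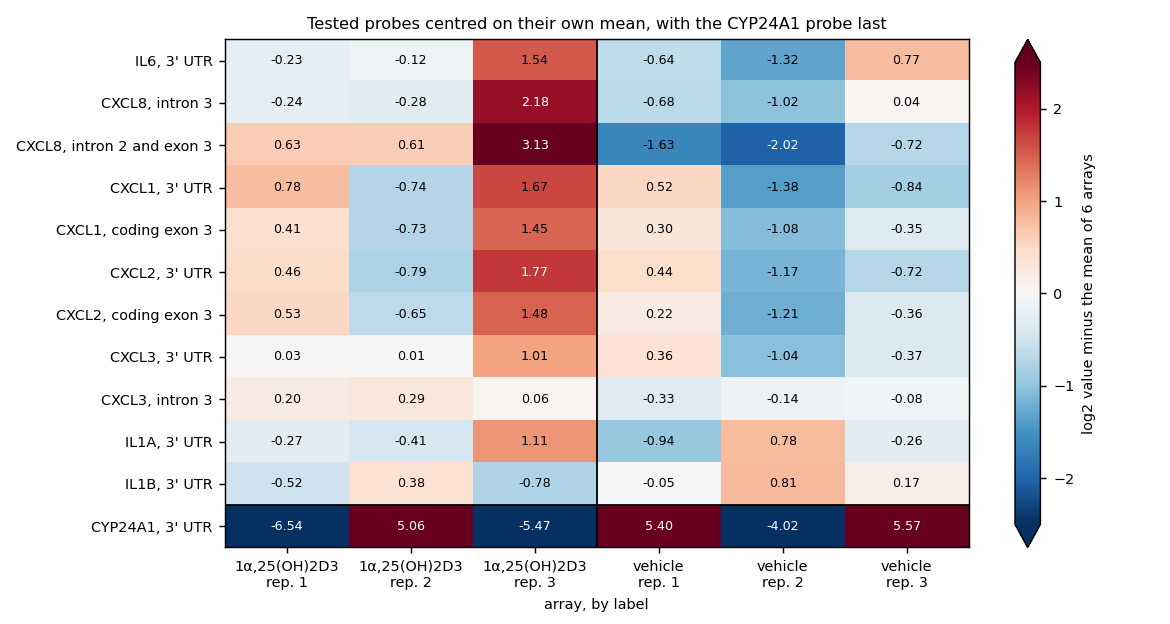
Deposited log2 value of each tested probe minus its own mean over the 6 arrays (colour and printed value; columns are arrays by label), with the CYP24A1 probe in the bottom row, whose values lie beyond the ends of the colour scale. Replicate 3 of 1α,25(OH)2D3 is the reddest column for IL6, CXCL8, CXCL1, CXCL2 and IL1A, and the bottom row alternates in another order.

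IL6, which encodes the cytokine that signals through IL6R and gp130 to STAT3, had 1 probe, in the 3′ UTR within exon 5 (chr7:22731588-22731647, plus strand). Its log2 value was 5.69, 5.80 and 7.46 on 1α,25(OH)2D3 replicates 1 to 3 and 5.28, 4.60 and 6.69 on vehicle replicates 1 to 3, where it was not well above background on vehicle replicate 2. The labels overlapped, since vehicle replicate 3 lay above 2 arrays labelled 1α,25(OH)2D3. The mean was 6.32 ± 0.99 (SD, n = 3) against 5.53 ± 1.07 (SD, n = 3), a log2 difference of 0.79 with a standard error of 0.63 and an adjusted p of 0.742 by limma. Without 1α,25(OH)2D3 replicate 3 the difference was 0.22. Within slide 2 it was 1.94.

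CXCL8 encodes interleukin-8, the main neutrophil attractant, which binds CXCR1 and CXCR2. The probe of intron 3 was detected on all 6 arrays, at 5.64, 5.59 and 8.06 under the label 1α,25(OH)2D3 and 5.19, 4.86 and 5.92 under vehicle. Only replicate 3 of the treated label lay above all vehicle arrays, and vehicle replicate 3 lay above the other treated arrays. The log2 difference was 1.11 (standard error 0.65), above 2-fold, with an adjusted p of 0.703 by limma. It fell to 0.29 without 1α,25(OH)2D3 replicate 3 and was 2.73 within slide 2.

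The CXCL8 probe across the junction of intron 2 and exon 3 was the only one of the 11 that was called. It read 4.74, 4.72 and 7.25 on the 3 arrays labelled 1α,25(OH)2D3, all well above background, and 2.48, 2.09 and 3.39 on the vehicle arrays, none of which was. The labels did not overlap. The fitted log2 difference was 2.92 with a standard error of 0.68, an unadjusted limma p of 0.00315 and an adjusted p of 0.701. Since the vehicle arrays carry only a bound, the change is given as at least 2.44-fold higher, the treated mean of 5.57 against a mean detection floor of 4.28. Without 1α,25(OH)2D3 replicate 3 that bound was 1.37-fold. It passed the filter only through the label in which it was high, so a difference was built into its being tested. The call held without 1α,25(OH)2D3 replicate 3, but the probe was again tested only through the treated label, so its holding carries no weight. It was lost with normexp background correction, under which 0 of the 11 probes were called.

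The CXCL8 probe in the 3′ UTR within exon 4 (chr4:73743548-73743607) was well above background on none of the arrays. Its values of 3.65, 2.88 and 2.98 under 1α,25(OH)2D3 and 2.04, 2.04 and 2.07 under vehicle did not overlap, but all lie below the level at which a probe counts as detected. It was therefore not tested. The 3 probes of this gene thus gave different accounts of it: above background on every array for the intron 3 probe, on 3 arrays for the probe at the intron 2 and exon 3 junction, and on no array for the probe in the last exon of the main transcript.

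**Figure D3:**
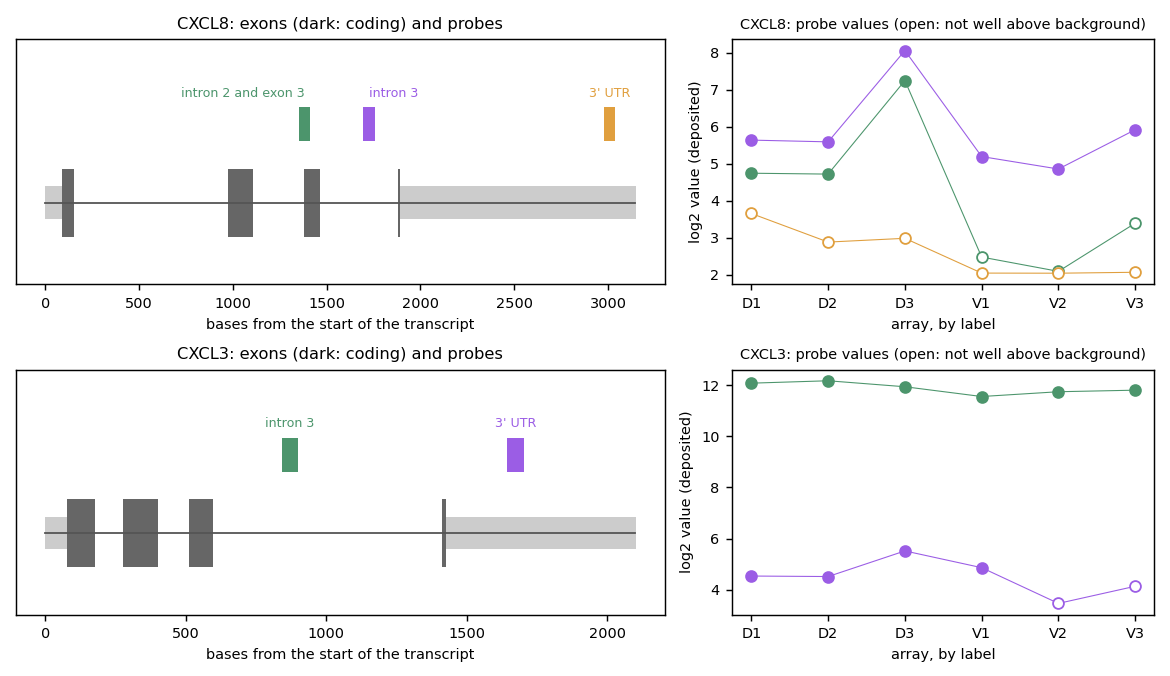
Left, exons (light, with coding parts dark) of the main CXCL8 and CXCL3 transcripts and the place of each probe, in bases from the transcript start. Right, the deposited log2 value of each probe on the 6 arrays by label in the same colours (open circles, not well above background), where the 3 CXCL8 probes and the 2 CXCL3 probes differ in which arrays stand out.

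CXCL1 encodes GROα, a ligand of CXCR2. Its exon 3 probe, printed on 10 spots, read 12.68, 11.54 and 13.72 under 1α,25(OH)2D3 and 12.57, 11.19 and 11.92 under vehicle. Within an array the 10 spots had a log2 standard deviation of 0.053 to 0.113, below the 1.09 and 0.69 between the arrays of each label. The labels overlapped, and the log2 difference was 0.75 (standard error 0.56) with an adjusted limma p of 0.730. The 3′ UTR probe read 10.15, 8.63 and 11.04 against 9.89, 7.99 and 8.53, a log2 difference of 1.14 with an adjusted limma p of 0.703. For both probes 1α,25(OH)2D3 replicate 3 was highest, followed by replicate 1 and by vehicle replicate 1, and vehicle replicate 2 was lowest.

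CXCL2, or GROβ, gave nearly the same order of arrays. Its exon 3 probe read 11.68, 10.50 and 12.63 under 1α,25(OH)2D3 and 11.37, 9.94 and 10.79 under vehicle, a log2 difference of 0.91 (standard error 0.56, limma, adjusted p = 0.707). Its 3′ UTR probe, on which vehicle replicate 2 was not well above background, read 6.30, 5.04 and 7.60 against 6.28, 4.67 and 5.12, a log2 difference of 0.96 (limma, adjusted p = 0.718). The 3′ UTR probes of CXCL1 and CXCL2, each with at least 22 mismatches to the other transcript, thus had the same 3 highest arrays, in the same order, and the same lowest array as the similar exon 3 probes. Without 1α,25(OH)2D3 replicate 3 the log2 difference of the exon 3 probes fell to 0.22 for CXCL1 and 0.39 for CXCL2, and within slide 2 it was 1.82 and 1.93.

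CXCL3, or GROγ, was read by a 3′ UTR probe and by the intron 3 probe, and these behaved differently. The 3′ UTR probe read 4.54, 4.52 and 5.52 under 1α,25(OH)2D3, all detected, and 4.86, 3.47 and 4.14 under vehicle, where only replicate 1 was detected. The labels overlapped, with a log2 difference of 0.70 (standard error 0.40, limma, adjusted p = 0.703). This probe too passed the filter only through the label in which it was higher, and 2 of its 3 vehicle values are not well above background, so the difference is uncertain in size. The intron 3 probe lay within a narrow band, at 12.08, 12.17 and 11.94 against 11.56, 11.74 and 11.80, and its labels did not overlap. Its log2 difference of 0.36 (standard error 0.15) had an unadjusted limma p of 0.0494 and an adjusted p of 0.701. With the scanner signal scaled to the 75th percentile the unadjusted p was 0.0813, above 0.05. Among all tested probes 12.2% had labels that did not overlap (7.03% with the treated label higher) and 6.77% an unadjusted p under 0.05, where 2 and 2 of these 11 did. Both counts include the CXCL8 junction probe, tested only through the label in which it was high, so neither can be read against these shares. Replicate 3 of 1α,25(OH)2D3, which stood highest for the other CXC chemokine probes tested, was the lowest of the 3 treated arrays for this probe.

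The CC chemokines were close to the detection limit. CCL2, the monocyte attractant MCP-1, had a 3′ UTR probe in exon 3 that read 5.42, 3.90 and 6.61 under 1α,25(OH)2D3 and 2.37, 2.67 and 2.37 under vehicle. It was well above background only on replicates 1 and 3 of the treated label, so it did not pass the filter and was not tested. The labels did not overlap, but with 1 treated array and all vehicle arrays below detection no fold is given. A second CCL2 probe, in intron 1, was detected on no array. CCL20 was read by a probe across exons 3 and 4 at 3.01, 2.50 and 5.81 against 2.42, 3.56 and 5.17. It was detected only on replicate 3 of each label, so its levels overlapped fully, and its intron 2 probe was detected on no array.

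IL1A and IL1B, the IL-1 receptor ligands that sit upstream of the other genes, did not share the chemokine pattern. IL1A read 8.36, 8.22 and 9.74 under 1α,25(OH)2D3 and 7.69, 9.41 and 8.37 under vehicle on its 3′ UTR probe. Vehicle replicate 2, lowest for IL6 and most chemokine probes, was here the second highest array. The log2 difference was 0.28 (standard error 0.52, limma, adjusted p = 0.890), and it turned negative without 1α,25(OH)2D3 replicate 3 (-0.20) or without vehicle replicate 1 (-0.12).

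IL1B was the only one of the 7 tested genes with the lower mean under the treated label. Its 3′ UTR probe read 4.42, 5.32 and 4.16 under 1α,25(OH)2D3, with replicate 3 not well above background, and 4.89, 5.75 and 5.11 under vehicle. The labels overlapped, and the log2 difference was -0.61 (standard error 0.35, limma, adjusted p = 0.703). Replicate 3 of 1α,25(OH)2D3, highest for IL1A, was lowest for IL1B. A second probe, in intron 3, was detected only on replicate 2 of each label, at 5.31 and 4.91, and was not tested. PTGS2, the inducible cyclooxygenase, read 2.08, 2.10 and 3.89 against 2.35, 2.37 and 2.19 on a 3′ UTR probe that was well above background on no array, so no fold is given.

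Of the 11 tested probes, 5 passed the filter through 1 label only, and each of these was higher under that label: IL6, the CXCL8 junction probe and the 3′ UTR probes of CXCL2 and CXCL3 under 1α,25(OH)2D3, and IL1B under vehicle. A count of directions over all 11 therefore says nothing. The 6 probes detected on all 6 arrays all had the higher mean under the label 1α,25(OH)2D3, with a median log2 difference of 0.83, beside -0.014 over all 57062 probes detected on all arrays, and 5 of these 6 were highest on 1α,25(OH)2D3 replicate 3. Several of these 6 probes read the same transcript or near copies of it, so they are not independent. The shares of the 57062 probes that were higher under the treated label, or highest on that array, were not taken. Neither count is therefore read as a result about these genes. The count of calls was 1 of 11, higher under the treated label, where 0.745% of all 63337 tested probes were called, 0.486% higher and 0.259% lower. That call is the CXCL8 junction probe, which passed the filter only through the label in which it was high. The count therefore cannot be read against this share. After adjustment over all tested probes no probe of any gene passed 0.05, and the lowest adjusted p of limma was 0.701, with 4286 probes at an unadjusted p under 0.05. Of the 11, 3 had a fold change above 2, where 1.15% of all tested probes did. These were the CXCL8 junction probe, the CXCL8 intron 3 probe and the CXCL1 3′ UTR probe. The first was tested only through the label in which it was high, and the second reads the same gene. This count too says nothing about the set.

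For the exon 3 probes of CXCL1 and CXCL2, the intron 3 probe of CXCL8, IL6 and IL1A, the difference was the smallest, or for IL1A turned negative, without 1α,25(OH)2D3 replicate 3 when each array was left out in turn. The CXCL3 intron 3 probe, by contrast, stood at 0.42 without that array, and IL1B at -0.38. With slide as a block the estimate equals that array against the 3 vehicle arrays of its slide, an arm of 1 array, and it is given here as a value with no test: 1.25 for IL1A, 0.24 for the CXCL3 intron 3 probe and -1.09 for IL1B, beside the values already given for IL6, CXCL8, CXCL1 and CXCL2. Replicate 2 of each label is the only pair whose CYP24A1 level goes with its labels. Between these 2 arrays the log2 differences were 1.20 for IL6, 0.73 for the CXCL8 intron 3 probe and -1.19 for IL1A. The exon 3 probes gave 0.35 for CXCL1 and 0.56 for CXCL2. This is a comparison of 1 array with 1 and without a test.

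**Figure D4:**
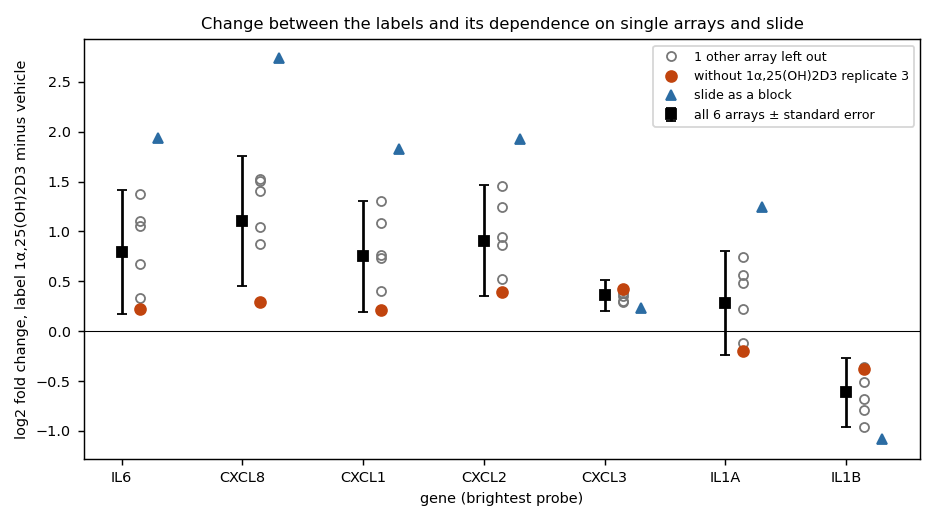
Log2 difference between the labels (vertical axis) for the brightest probe of each of the 7 tested genes: all 6 arrays with the standard error of the limma fit (black squares), each other array left out (open circles), 1α,25(OH)2D3 replicate 3 left out (orange) and slide as a block (blue triangles). For CXCL8 and CXCL3 the brightest probe lies in intron 3. For IL6, CXCL8, CXCL1 and CXCL2 the orange point is the lowest and the triangle the highest.

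The genes around this circuit were read from 7 lists with 81 genes, of which 79 had a probe and 61 were tested, each by its brightest probe. Of the 61, 1 was called higher and 1 lower, 3 had an unadjusted p under 0.05, none passed adjustment, and the median log2 difference was 0.044. Of these genes 5 passed the filter through 1 label only. Replicate 3 of 1α,25(OH)2D3 was the highest array for 17 of the 61, and for 12.9% of all tested protein-coding probes. The 17 include IRAK2 and CCL5, which passed the filter only through the treated label, and the share counts probes where the 61 are genes. The count is therefore not read against that share. Over all tested protein-coding probes 0.52% were called, 0.92% changed by more than 2-fold in the mean and 4.8% had an unadjusted p under 0.05.

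Among 10 tested receptors none was called, and the largest differences were -0.87 for IL1R2, the decoy receptor of IL-1, and -0.76 for IL1RAP, its co-receptor. The 4 tested probes of IL1RAP ran from -0.76 to 0.30. None of 14 tested NF-kB subunits, kinases and inhibitors was called. BIRC3, an NF-kB target that inhibits apoptosis, had the largest difference there (1.06, limma, adjusted p = 0.701), followed by TNFAIP3, which encodes the feedback inhibitor A20 (-0.48). Of 11 genes of IL-1 receptor and JAK-STAT signalling none was called, with IRAK2, an IL-1 receptor kinase, at 0.56 and SOCS1, a feedback inhibitor of JAK kinases, at 0.34. None of 7 genes of cytokine mRNA decay and feedback was called, where DUSP1, a phosphatase of MAP kinases, stood at -0.51 and ZFP36L1, an mRNA decay factor, at 0.40. The 3 tested genes of cytokine processing gave no call, with the inflammasome adaptor PYCARD at -0.69 and the sensor NLRP1 at -0.14.

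Both calls fell in the remaining lists. Among 10 other inflammatory ligands CXCL5, a further CXCR2 ligand, was called higher. It read 7.40, 7.18 and 6.14 under 1α,25(OH)2D3 and 6.06, 5.73 and 5.81 under vehicle, without overlap, a log2 difference of 1.04 with a standard error of 0.32, an unadjusted limma p of 0.0130 and an adjusted p of 0.701. Unlike CXCL1 and CXCL2, it was lowest on replicate 3 of the 3 treated arrays. IL18, a cytokine of the IL-1 family, had a log2 difference of 0.88 and was not called.

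The other call was PTGES, the prostaglandin E synthase that acts after PTGS2, which was lower under the treated label. It read 5.06, 6.13 and 4.26 against 5.58, 7.30 and 6.43, with overlap and with the value of 4.26 not well above background, a log2 difference of -1.29 with a standard error of 0.55, an unadjusted limma p of 0.0492 and an adjusted p of 0.701. PTGES passed the filter only through the label in which it was higher. PTGS1, the constitutive cyclooxygenase, was at 5.11, 5.71 and 5.61 against 5.76, 8.18 and 6.21, without overlap but with most of the gap on vehicle replicate 2, and was not called (-1.24). The remaining gene of these lists with an unadjusted p under 0.05, named after its value was seen, was PTGIS, the prostacyclin synthase, at a log2 difference of 0.69 with an unadjusted limma p of 0.0196. The 6 tested genes of prostaglandin synthesis and breakdown had a median of -0.19. Both calls were lost with normexp background correction and without 1α,25(OH)2D3 replicate 1, where the count over the 7 lists was 0.

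**Figure D5:**
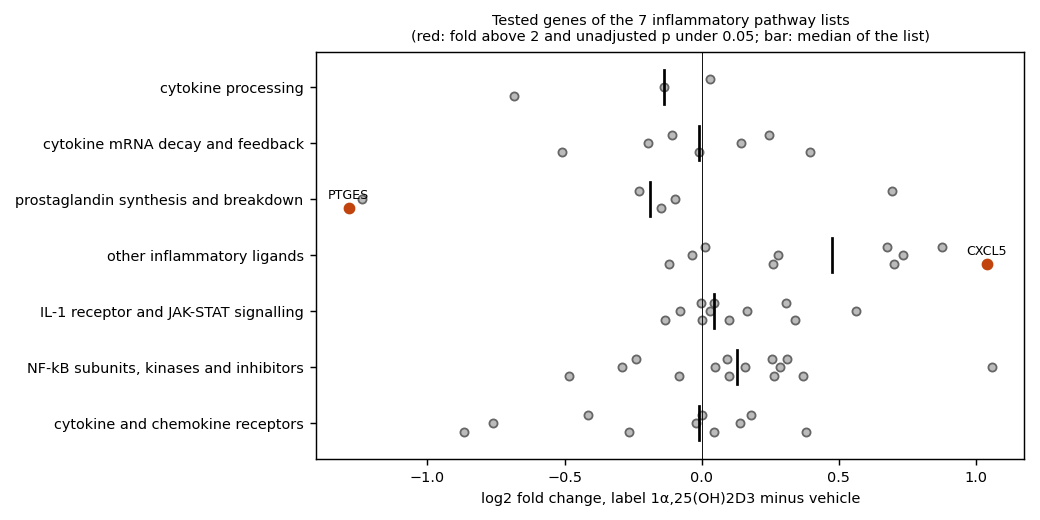
Log2 difference between the labels (horizontal axis) of each of the 61 tested genes in 7 lists (rows; bars are list medians). The 2 called genes, CXCL5 at 1.04 and PTGES at -1.29, are red, and most other genes lie within 0.5 of zero.

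Genes with the pattern most like CXCL8 and CXCL2 over the 6 arrays were taken from 12762 protein-coding genes detected on all arrays, by the root mean square difference in log2 value once each probe was centred on its mean. For the CXCL2 exon 3 probe, whose own standard deviation was 0.87, the nearest were CXCL1 (0.087), the cytokine TNF (0.19), LTF, which encodes the iron-binding lactoferrin (0.22), the tight junction gene CLDN4 (0.25) and the mitochondrial carrier gene UCP2 (0.27). TNF read 7.14, 5.92 and 8.34 under 1α,25(OH)2D3 and 7.14, 5.49 and 6.75 under vehicle, a log2 difference of 0.67 (limma, adjusted p = 0.780). Both chemokines and TNF were highest on 1α,25(OH)2D3 replicate 3 and lowest on vehicle replicate 2. Since CXCL1 and TNF were picked here for their likeness over these same arrays, a shared order follows largely from the choice.

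For the CXCL8 intron 3 probe, with a standard deviation of 1.03, the genes of like pattern given here were less alike. They were CHAC1, which encodes a glutathione-degrading enzyme (0.40), TRIM36 (0.45), NUPR1, which encodes a stress-induced transcriptional regulator (0.48), and GDF15, which encodes a secreted protein of the TGF-β superfamily (0.50). All 4 were highest on 1α,25(OH)2D3 replicate 3, as this probe was, which follows largely from their being picked for likeness over the same arrays. Of the other genes of the 10, only CXCL1, CXCL2 and IL1A had a protein-coding probe detected on all arrays and could be found, and none of these was among them.

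Promoter sequences of RefSeq (GRCh38.p14), from 250 bases before to 50 after the transcript start, were at hand for 9 of the 10 genes, and are shown since IL6 and the CXC chemokine genes hold the same kind of letters close to the start. The letters GGANNTTCC, a short form of the NF-kB site searched on both strands, occurred in 5 of these 9 genes, and in 4.565% of all 35116 windows. The 5 are IL6, CXCL8, CXCL1, CXCL2 and CXCL3, and the match began 91 bases before the start in CXCL8, 78 in CXCL1 and CXCL3, 77 in CXCL2 and 72 in IL6. In the stretches of 90 bases that follow, capitals mark the match.
CXCL8, chr4:73740448-73740537, plus strand: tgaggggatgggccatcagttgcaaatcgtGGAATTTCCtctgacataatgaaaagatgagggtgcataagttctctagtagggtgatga
CXCL1, chr4:73869285-73869374, plus strand: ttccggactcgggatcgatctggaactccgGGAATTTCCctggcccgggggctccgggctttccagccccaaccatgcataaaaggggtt
CXCL2, chr4:74099213-74099302, minus strand: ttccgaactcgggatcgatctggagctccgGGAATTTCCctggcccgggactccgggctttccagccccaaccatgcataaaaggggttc
CXCL3, chr4:74038708-74038797, minus strand: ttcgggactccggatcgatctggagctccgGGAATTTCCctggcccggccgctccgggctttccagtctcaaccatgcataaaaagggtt
IL6, chr7:22727098-22727187, plus strand: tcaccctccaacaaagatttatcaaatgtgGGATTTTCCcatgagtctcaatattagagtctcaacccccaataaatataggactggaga

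The windows of CXCL1, CXCL2 and CXCL3 are near copies of each other and do not count as separate matches. The letters TGANTCA, a short form of the AP-1 site, occurred in CXCL8 and IL1A, 2 of the 9 genes, and in 7.709% of all windows. TATAAA occurred in CXCL8, CCL20, IL1A and PTGS2, 4 of the 9, and in 11.53% of all windows. No match of one form overlapped a match of another in these windows, and a match describes the sequence only.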

How the data were processed

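Total RNA of SKOV3 cells (3 samples labelled 1α,25(OH)2D3, 3 labelled vehicle) had been amplified, labelled with Cy3 and hybridised to 1 array each. The labels name the mirVana kit for RNA extraction and the study's methods name TRIzol. The authors deposited for each spot an intensity on a linear scale, made with Agilent Feature Extraction 10.7.1.1 per the submitters' processing notes, and a table of log2 values per probe and array. Sorted columns of that table differed by at most 0.000913, so it had been quantile normalized, and it ranked probes like the scanner signals (Spearman at least 0.9998). The deposited log2 values were used, all centred on a median of 4.78, and the intensity gave the background flags and the alternatives. Control spots and 1837 to 2471 outlier spots per array were not used.

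Gene names are absent from the files, so each probe sequence was matched without mismatch to sense transcripts of GENCODE release 44 and placed in hg38. The fit was limma 3.58.1 in R 4.3.3, label against label without a covariate, with Benjamini-Hochberg adjustment over all fitted probes. Fitted were probes that the scanner flagged above background throughout 1 label or both (all 3 arrays). In a simulation of 63337 probes the call rule found 94.9% of known log2 changes of 1.5 and 99.0% of those of 3.0. It also called 360 unchanged probes there, beside 472 calls in the real data. The detection floor in a bound is, per array, the lowest value among probes well above background, or the dim probe's own value where higher. Named were the 10 genes with every probe, pathway genes that were called, the 2 largest differences in each list, and the 5 genes nearest in pattern to each of the 2 members with the widest range (1 of these genes is not reported here). The members and lists were chosen with earlier results of these data known. Alternatives were scanner signals scaled to the 75th percentile or by quantiles, normexp with an offset of 50, no filter, detection required on all 6 arrays, blocks for replicate number or slide, protein-coding probes only, other probes of a gene, replicate 2 of each label alone, and each array left out.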

Additional observations from a re-analysis of the deposited data

How the results depend on the processing

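The fold differences kept their direction in nearly every setting tried for the 7 tested genes: of 106 values, 94 kept direction and side of the call rule (fold above 2 with an unadjusted p under 0.05), 9 met it newly, 2 reversed and 1 moved beyond the spread of replicates. The unadjusted p alone was less steady: of 99 values with a p, 13 crossed to under 0.05 and 9, all of CXCL3, to 0.05 or more. The reversals were those of IL1A without 1α,25(OH)2D3 replicate 3 (-0.20) and without vehicle replicate 1 (-0.12), and the move was IL1A between replicate 2 of each label (-1.19). Each gene stands here for its brightest probe, which for CXCL8 and CXCL3 lies in intron 3. The 3′ UTR probe of CXCL3 gave 0.70 on all 6 arrays, and that of CXCL8 was not tested. With 1 array left out the log2 difference of the brightest probe ranged from 0.22 to 1.38 for IL6, 0.29 to 1.52 for CXCL8, 0.22 to 1.30 for CXCL1, 0.39 to 1.46 for CXCL2, 0.29 to 0.42 for CXCL3, -0.20 to 0.74 for IL1A and -0.96 to -0.36 for IL1B. The lowest value of IL6, CXCL8, CXCL1 and CXCL2 was always that without 1α,25(OH)2D3 replicate 3.

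The count of called cytokine and chemokine probes was 1. It became 0 with normexp, 0 with the filter on all 6 arrays, 0 among protein-coding probes only, 3 with no filter on background and 8 with slide as a block, where the treated arm is 1 array, and ranged from 1 to 6 with 1 array left out (6 without 1α,25(OH)2D3 replicate 2, 3 without vehicle replicate 1). The filter on all 6 arrays and the protein-coding class leave out the called CXCL8 probe by construction. The count over the pathway lists was 2. It was 0 with normexp, 1 with no filter, 1 where detection on all 6 arrays was required, and 0 (without 1α,25(OH)2D3 replicate 1) to 5 (without vehicle replicate 1) with 1 array left out. The count over all probes was 472. It was 34 with normexp, 1612 with no filter, 157 with the filter on all 6 arrays, 102 among protein-coding probes and 808 with slide as a block, of which 402 were higher against 308 of 472, and 329 to 1525 with 1 array left out. With scanner signals at the 75th percentile 371 of 513 calls were higher. Adjusted calls were 0 in every setting but that without vehicle replicate 1, with 4. Where not stated, the cause was not tested.

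Same replicate numbers gave no clear sign of paired arrays: deviations from the label means of same-numbered arrays correlated at 0.121, 0.0922 and -0.0254, and not every array correlated best with its own number. With 3 arrays a label, and labels that CYP24A1 puts in doubt, this cannot settle whether arrays were paired. With the replicate number as a block 3 cytokine and chemokine probes, 3 pathway genes and 582 probes in all were called. For the brightest probes the unadjusted limma p was then lower for every tested gene but CXCL3. It was 0.00943 against 0.243 for IL6 and 0.0838 against 0.0494 for CXCL3, and no probe passed adjustment.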
